A study of Aspergillus niger with 6 samples.

Results

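Genes whose transcript level was highest at 12 h were described in Aspergillus niger H915-1, a mould grown as pellets in a citrate fermentation. They were selected on the FPKM of the 5 libraries at 3 vvm, as the genes with their highest FPKM of 5 sampled times at 12 h, at least 10 FPKM there, and a range of at least 2 units of log2(FPKM + 1), about 4-fold, over the course. FPKM is the number of fragments scaled by transcript length and library size. The rule took 70 of the 9953 genes listed in the time course, or 0.703%. Since these 5 libraries chose the genes, their course at 3 vvm is given as a description, with no test.

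Aeration is given in vvm, the air volume supplied per culture volume and minute. It was 3 vvm in the libraries of 6, 12, 24, 36 and 48 h and 1.5 vvm in a second library of 48 h. All were of the same strain, with 1 library per group, so no difference between libraries has a replicate check and no p-value was computed for one. The libraries of 48 h at 3 and at 1.5 vvm differ in aeration at the same age and so came from separate cultures. A difference of aeration therefore cannot be told apart from a difference between cultures. The labels do not say whether the libraries at 3 vvm came from 1 culture or from several. Library depth lay between 5062817 fragments at 6 h and 6708034 at 1.5 vvm. In a bulk sample such as this, less RNA per cell and fewer cells of a kind cannot be told apart.

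Aspergillus niger secretes large amounts of citric acid when sugar is plentiful and manganese is scarce, and its submerged cultures first build up hyphae and then turn to acid production with little further growth. Citrate is made in the mitochondrion by the condensation of acetyl-CoA with oxaloacetate and is then exported. In filamentous fungi, genes of 1 biosynthetic or catabolic pathway often lie side by side. A table of names for 14404 genes of the species held 0 of the deposited identifiers, so no member is given a name or function. Genes are therefore told apart by contig and position, on the contigs of the authors' own files, for which the labels name no genome build.

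The members spanned a wide range of abundance. At 12 h the lowest was at 10.3 FPKM, the median at 74.6 and the highest at 5321. Of the 70 genes, 31 were below 50 FPKM at 12 h, 32 were at 100 or more and 7 at 1000 or more. Their median was 20.7, 74.6, 24.0, 17.3 and 19.7 FPKM at 6, 12, 24, 36 and 48 h. The medians of the other 4 libraries were thus close to each other and below that of 12 h, although each was taken over the members at that time and is not the course of any one gene.

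For most members the 12 h level was not far above the next highest. The median ratio of FPKM at 12 h to the second highest library was 1.46, and 20 genes were at least 2-fold above it on the log2(FPKM + 1) scale. The second highest level was at 6 h in 32 genes, at 24 h in 21, at 36 h in 11 and at 48 h in 6. The 12 h level exceeded each of the other 4 by the exact 95% counting interval of the fragment ratio (Clopper-Pearson) in 50 of 70 genes. That interval included 1 against 6 h in 13 genes, against 24 h in 10, against 36 h in 9 and against 48 h in 7. Such intervals hold no other error than that of counting, and PCR copies are not independent molecules.

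A few members rested on very few fragments. The median member had 390.5 fragments at 12 h and the highest 20684, but 6 genes had between 1 and 7. These 6 were listed at 15.1 to 28.6 FPKM, and their listed spans ran from 189 to 2291 bases. The gene on unitig_6 from 2665155 to 2665343 had 1 fragment at 12 h, 1 at 24 h, 1 at 48 h and none at 6 or 36 h, so its place in the set was within counting error.

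Genes at the limits of the rule had the following values. Just inside 10 FPKM at 12 h were genes at 10.3 FPKM (unitig_58, from 6971) and 10.5 FPKM (contig 1, from 3061143), and just outside were genes at 9.99 FPKM with 2 fragments and at 9.44 FPKM with 24. In log2 range, the closest inside were at 2.005 and 2.017 and the closest outside at 1.985 and 1.962. The smallest leads of 12 h over the next library were 140.4 against 138.9 FPKM and 451 against 444 FPKM, both over 6 h. Just outside were 2 genes that were slightly higher at 36 h than at 12 h, on unitig_3 from 3424468 (49.590 FPKM at 12 h and 49.592 at 36 h) and on unitig_4 from 84763 (44.16 and 44.18 FPKM).

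Members differed in how they reached 12 h and how they left it. A gene was called low at 6 or 24 h where it was at least 2-fold below its 12 h level on log2(FPKM + 1), and otherwise high at 6 h or held at 24 h. By this step, 43 of 70 members were higher at 12 h than at 6 h, against 7.66% of all genes at 1 FPKM or more, and 26 reached a 4-fold difference, against 1.85%. At 24 h, 50 members were at least 2-fold below 12 h, against 4.24% of all genes, and 22 at least 4-fold below, against 0.848%. At 48 h, 57 members were at least 2-fold below 12 h (all genes 5.39%) and 45 at least 4-fold below (1.27%). Rescaling the libraries to a common sum moved the median of all genes between 12 and 6 h from -0.01 to 0.12 on the log2(FPKM + 1) scale and left 43 members higher, against 9.36% of all genes. The rule used these contrasts, so the gaps to all genes follow from the choice of members.

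Both steps together split the set into 4 shapes. The largest, with 28 genes, was low at 6 h and low again at 24 h. Another 22 genes were high at 6 h, that is less than 2-fold below their 12 h level, and low at 24 h. There were 15 genes that were low at 6 h and held at 24 h, and 5 that held at both times. With only the 64 genes of at least 10 fragments at 12 h, the numbers were 26, 21, 13 and 4.

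**Figure D1:**
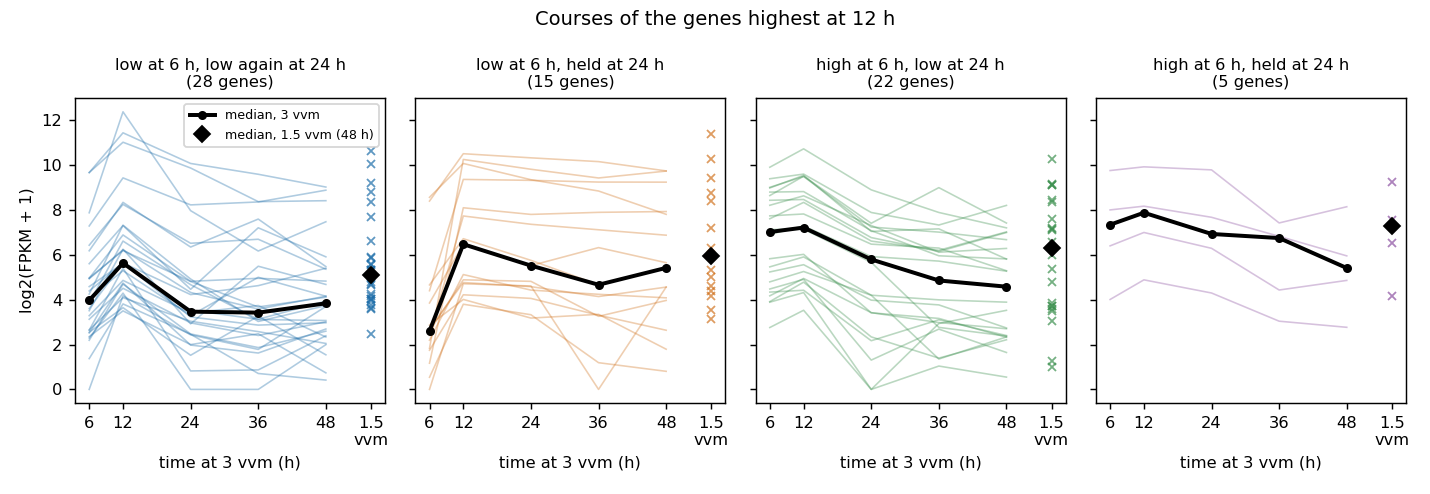
Transcript level as log2(FPKM + 1) against time at 3 vvm for the 70 genes highest at 12 h, in 4 panels by shape, with thin lines for genes and black circles for medians; crosses and a black diamond give the same genes and their median at 48 h and 1.5 vvm. The 28 genes of the first panel drop back by 24 h, while the median of the 15 genes of the second stays above its 6 h level at each later time.

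**Figure D2:**
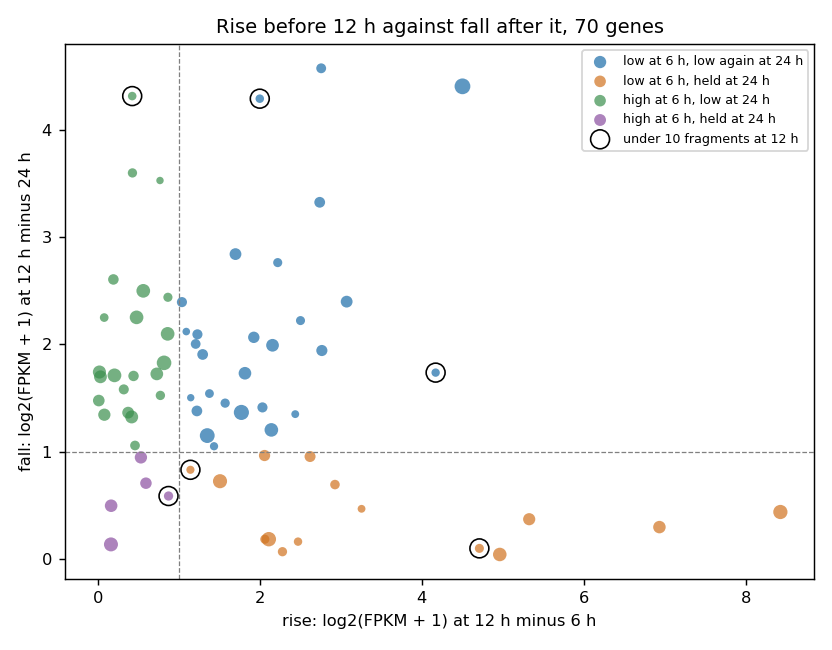
Difference in log2(FPKM + 1) between 12 and 6 h (horizontal) and between 12 and 24 h (vertical) for the 70 genes, coloured by shape; point area grows with FPKM at 12 h, dashed lines mark the 2-fold step and open circles mark genes with under 10 fragments at 12 h. The 3 points furthest right among those with 10 fragments or more reach differences of 5.32, 6.93 and 8.42 and held their level at 24 h.

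The genes low on both sides of 12 h had a median of 14.7, 48.6, 10.1, 9.79 and 13.3 FPKM from 6 to 48 h. This shape rests on 6 and 24 h alone, and 9 of its 28 genes were at least 2-fold above 24 h at 36 or 48 h. The gene evm.model.unitig_6.794 (unitig_6, 2845275 to 2847581) was the most abundant member at 12 h and, on log2(FPKM + 1), the one furthest below its 12 h level at 48 h. It was at 234, 5321, 250, 71.0 and 177 FPKM at 6, 12, 24, 36 and 48 h, from 815, 19026, 934, 260 and 742 fragments. The 12 h library stood alone, since each of the other 4 was at 250 FPKM or less. Relative to depth, 12 h was 22.7-fold above 6 h (95% counting interval 21.2 to 24.4), 20.8-fold above 24 h (19.4 to 22.2) and 30.1-fold above 48 h (28.0 to 32.4).

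Other abundant genes of this shape had shallower peaks. On unitig_6 from 1731151 to 1732921, the level was 812, 2779, 1077, 771 and 519 FPKM over the 5 times, so that 12 h was 3.51-fold above 6 h (3.40 to 3.61) and 2.64-fold above 24 h (2.57 to 2.71). On unitig_1 from 3899632 to 3900204 it was 813, 2078, 936, 330 and 340 FPKM from 6 to 48 h. Here 12 h was 2.58-fold above 6 h (2.41 to 2.75) and 6.13-fold above 48 h (5.63 to 6.68). Both were already abundant at 6 h. A low gene with a steep peak lay on unitig_2 from 3520495 to 3520944, at 5.24, 41.2, 0.770, 0.827 and 4.24 FPKM, from 6, 49, 1, 1 and 6 fragments.

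Genes that came up by 12 h and held at 24 h were mostly lowest at the start. Of these 15 genes, 13 had their lowest level at 6 h. Their median was 5.09, 87.9, 44.9, 24.4 and 41.8 FPKM from 6 to 48 h. Held refers to 24 h alone, and only 7 of them stayed within 2-fold of 12 h up to 48 h. The rest were at least 2-fold lower by 36 or 48 h, such as a gene on unitig_2 from 3281248, at 0.455, 12.9, 9.06, 1.28 and 0.749 FPKM. The genes described next are among the 7. The 2 largest differences between 12 and 6 h in the whole set belonged to neighbours on contig 1. The first, from 4273945 to 4275212, was at 2.56, 1220.5, 901, 688 and 851 FPKM at 6, 12, 24, 36 and 48 h. Its fragments went from 12 at 6 h to 5843 at 12 h, a 474-fold ratio relative to depth (271 to 918).

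The second, from 4275706 to 4282511, was at 1.25, 273, 222, 237 and 243 FPKM from 6 to 48 h. Relative to depth it was 217-fold higher at 12 h than at 6 h (160 to 303) and 1.12-fold higher at 12 h than at 48 h (1.09 to 1.15). For both genes the 6 h library alone was low, and each library after 12 h stayed within 2-fold of it. In the first gene 12 h was 1.43-fold above 48 h (1.38 to 1.49). A similar course stood on unitig_2 from 3003843 to 3005466, at 4.31, 212, 164, 138 and 116 FPKM, where 12 h was 49.0-fold above 6 h (33.1 to 76.1). Another, on unitig_3 from 388443 to 389897, was among the 5 most abundant members, at 336, 1457, 1282, 1141 and 855 FPKM at 6, 12, 24, 36 and 48 h.

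Genes that were high at 6 h, less than 2-fold below 12 h, were lower after 12 h. The 22 that were low by 24 h had a median of 129, 148, 54.8, 33.3 and 25.7 FPKM from 6 to 48 h. The gene evm.model.unitig_6.137 (unitig_6, 557889 to 559310) was at 138.9, 140.4, 49.8, 5.80 and 4.21 FPKM at 6, 12, 24, 36 and 48 h. Its 12 h level was 1.03-fold its 6 h level (0.929 to 1.13), so the 2 early libraries were not distinguishable by counting error, and 34.3-fold its 48 h level (23.5 to 51.9). Much more abundant was a gene on unitig_4 from 660820 to 661960, at 959, 1694, 476, 236 and 146 FPKM from 6 to 48 h. Its 12 h level was 1.80-fold its 6 h level (1.74 to 1.87), still under the 2-fold step. The 5 genes that held at 24 h as well had a median of 161, 234, 121, 107 and 41.6 FPKM from 6 to 48 h.

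Some members came back after 24 h. At 36 or 48 h, 13 of 70 genes were at least 2-fold above their 24 h level, against 8.62% of all genes, and 10 of these 13 had at least 10 fragments at 12 h. That count does not cover the later libraries. Among the 10 was the gene on unitig_2 from 3520495, with 1, 1 and 6 fragments at 24, 36 and 48 h. All 13 had been low at 24 h, 9 of them also at 6 h. In 5 members the 36 h library was at least 2-fold above both 24 and 48 h, against 0.849% of all genes, so that falls and rises alternated from 12 h on. A low level at 24 or 48 h helped a gene to reach the range that the rule asks for. Part of these gaps to all genes can thus come from the choice of members.

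Of these 5, one lay on unitig_4 from 75138 to 83143 and was at 47.7, 157, 21.1, 147 and 59.2 FPKM from 6 to 48 h, from 1799, 6130, 835, 5896 and 2665 fragments. Its 36 h level was 6.97-fold its 24 h level (6.48 to 7.50). The next listed gene, from 84763 to 87058, was the one just outside the rule, at 13.3, 44.16, 6.93, 44.18 and 14.4 FPKM from 6 to 48 h, with the same alternation. On unitig_6 from 265818 to 267295, FPKM was 71.6, 323, 80.4, 192 and 43.5. On unitig_0 from 3329222 to 3332421 it was 399, 727, 169, 510 and 170 FPKM, with 36 h 3.07-fold above 24 h (2.90 to 3.25). The other 2 were lower, at 8.62 FPKM at 36 h on unitig_5 from 1127888 and at 5.45 FPKM on contig 1 from 3058206. These 5 genes were chosen after their values were seen.

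Position, which the rule did not use, was uneven over the contigs. Contig 1 held 23 of the 70 members (32.9%) and 1203 of the 9953 listed genes (12.1%). Of its genes 1.91% were members, against 0.141% (unitig_1) to 1.15% (unitig_5) on the other 7 contigs with at least 100 genes. For genes highest at another time by the same rule, contig 1 held 12.2% of the 271 highest at 6 h, 17.5% of the 114 at 24 h, 14.0% of the 221 at 36 h and 11.9% of the 318 at 48 h. The share of contig 1 was not tested, because neighbouring genes are not independent. The 23 genes on contig 1 were of all 4 shapes. Of these, 9 were high at 6 h and low at 24 h, 7 came up and held, 6 were low on both sides and 1 held at both times.

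Many members lay close to another. For 14 of 70 the next listed gene on 1 side or the other was also a member, in 6 runs of 2 or 3 genes, and for 23 (32.9%) a member lay within 2 listed genes. In the sets of the other 4 times, which were larger, 23.5% to 26.6% had an adjacent gene of their own set and 26.7% to 31.0% one within 2 genes. Of the genes beside a member that were not members themselves, 13 of 103 (12.6%) were highest at 12 h, against 911 of 9016 (10.1%) of the remaining genes. Their median difference between 12 and 6 h was -0.08 on the log2(FPKM + 1) scale, against -0.01 for the remaining genes. Near a long contig's end, within 100 kb, lay 5 of 68 members (7.35%) and 2.39% of the 7232 genes that reached 10 FPKM, while the sets highest at 6, 24, 36 and 48 h had 9.23%, 8.77%, 6.36% and 3.14% there.

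There were 5 groups with at least 3 members among 5 neighbouring listed genes, 4 of them on contig 1. The first, from 147247 to 151817, held 3 genes in a row and no other. Their FPKM from 6 to 48 h was 505, 746, 131, 142 and 55.2 for the first, 213, 225, 88.1, 78.0 and 38.2 for the second and 36.7, 46.2, 14.8, 12.6 and 5.68 for the third. The 3 courses ran in parallel at different levels, each near its peak at 6 h and lowest at 48 h. The genes on either side were at 4.86 and 1.86 FPKM at 12 h.

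The group from 4269213 to 4282511 held 3 genes in a row, among them those from 4273945 and 4275706 with the largest differences between 12 and 6 h. The gene in front of these 2 was at 20.1, 658, 639, 606 and 604 FPKM at 6, 12, 24, 36 and 48 h, and its 12 h level was 32.1-fold its 6 h level (26.8 to 38.9). All 3 stayed within 2-fold of their 12 h level up to 48 h. The next gene after them, at 210 and 391 FPKM at 6 and 12 h, was highest at 48 h with 446 FPKM, and the one before them was lower at 12 h (52.1 FPKM) than at 6 h (109 FPKM).

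In the other 3 groups, members stood among genes with other courses. Between 2936339 and 2955262 on contig 1, the 3 members had 11.2, 4.73 and 30.3 FPKM at 6 h and 48.9, 25.7 and 72.1 FPKM at 12 h, while a gene between them went from 24.6 FPKM at 6 h to 3.44 at 12 h. From 4155776 to 4165490, the members had 26.2, 28.0 and 1078 FPKM at 12 h, and the gene between the first pair was nearly level over the course (48.5 to 64.4 FPKM). On unitig_4 from 3712639 to 3726988, the last 2 members were adjacent, the first with 29.5, 74.0 and 19.0 FPKM at 6, 12 and 24 h and the second with 30.1, 117 and 27.3. The first member of that group, at 28.6 FPKM at 12 h, was still at 27.2 at 24 h.

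**Figure D3:**
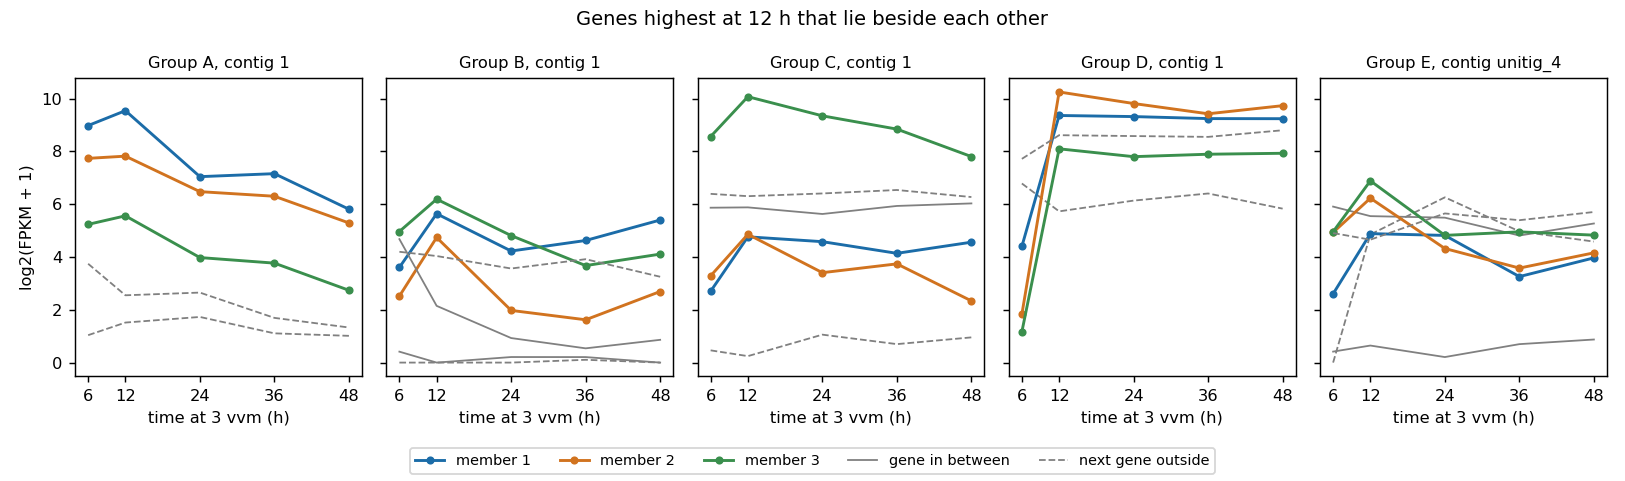
Transcript level as log2(FPKM + 1) against time at 3 vvm in the 5 groups of neighbouring members, A to D on contig 1 in order of position and E on unitig_4; coloured lines with points are members in order along the contig, solid grey lines genes in between and dashed grey lines the next listed genes outside. In A the 3 members are lower from 24 h on and lowest at 48 h, and in D they jump between 6 and 12 h and stay within 2-fold of 12 h.

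The library at 1.5 vvm was not used to choose the members, so their level there is a separate measurement. All 70 were listed with it, from 1.02 to 2674 FPKM, with a median of 42.8 FPKM against 19.7 at 48 h and 3 vvm. Relative to 48 h and 3 vvm, 43 members were higher by 2-fold or more at 1.5 vvm, against 22.1% of all genes, and 2 were at least 2-fold lower, against 2.83%. The median difference was 1.30 on the log2(FPKM + 1) scale for members and 0.28 for all genes. Rescaling the libraries to a common sum moved the median of all genes to 0.04 and that of members to 1.07, with 36 members higher (all genes 17.2%) and 2 lower (all genes 4.75%). The 48 h library at 3 vvm took part in the choice of members, through the range and through being below 12 h, so part of this difference can come from the choice.

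Against the 12 h library more members were lower than higher. At 1.5 vvm 29 members were at least 2-fold below their 12 h level, against 2.03% of all genes, and 6 were at least 2-fold above it, against 24.9%. These shares are not like for like, since members had at least 10 FPKM at 12 h and all genes needed 1 FPKM in either library. The 442 genes silent at 3 vvm had a median of 1.57 FPKM at 1.5 vvm, so weak genes can pass the 2-fold step. The 12 h library was used by the rule as well. Of the 5 libraries at 3 vvm, the one nearest to the 1.5 vvm level on log2(FPKM + 1) was 12 h for 27 members, 24 h for 15, 6 h for 13, 36 h for 9 and 48 h for 6. For the genes highest at 6 h by the same rule, 12 h was also the most frequent, in 86 of 269. The level at 1.5 vvm was above the 12 h level in 21 members, between the highest and lowest level at 3 vvm in 45 and below the lowest in 4. By the counting interval, 15 of the 21 were above 12 h. Neither the nearest library nor the number above 12 h was computed over all genes or after rescaling. The rule put each member's highest level at 12 h, and all genes had a median difference of 0.28 between 1.5 and 3 vvm at 48 h. Nearness to 12 h is therefore a description only.

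Genes highest at 6 h by the same rule stood beside these values as follows. Of 269 listed at 1.5 vvm, 56.1% were at least 2-fold above 48 h and 3 vvm, against 61.4% of the genes highest at 12 h. For 10.4% of them the 1.5 vvm level was above their highest at 3 vvm, against 30.0%. Of the genes highest at 24 h, 30.7% were at least 2-fold above 48 h and 28.9% above their highest. With 1 library at 1.5 vvm, the differences between these sets were not tested.

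**Figure D4:**
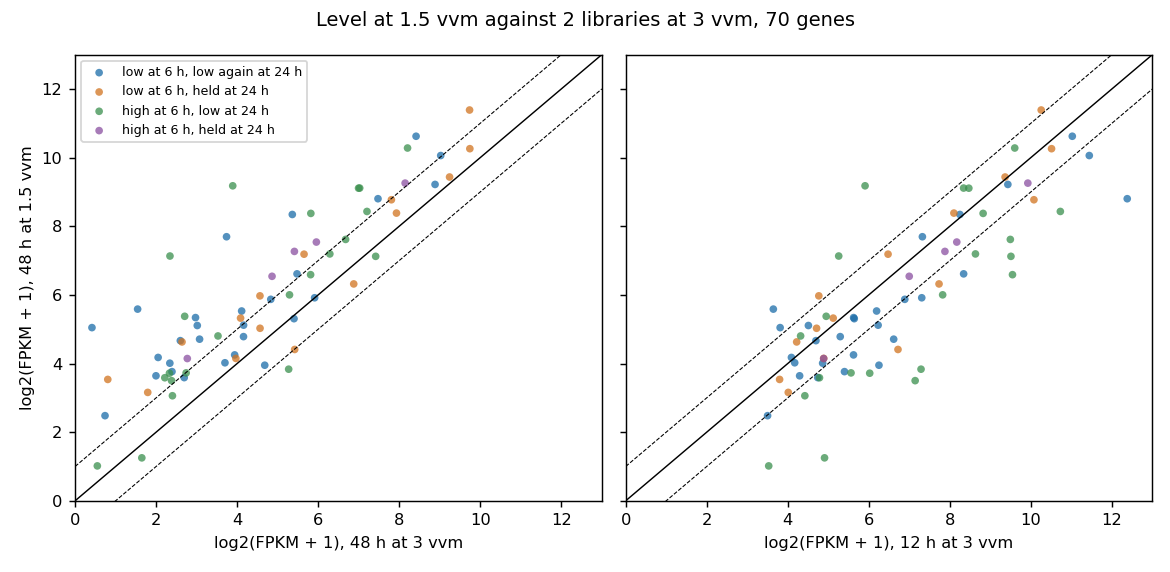
Level at 48 h and 1.5 vvm against that at 48 h (left) and 12 h (right) at 3 vvm for the 70 genes, both axes as log2(FPKM + 1), coloured by shape; the solid line marks equal levels and the dashed lines 2-fold differences. In the left panel 43 points lie on or above the upper dashed line, and in the right panel 29 lie on or below the lower one.

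Members higher at 1.5 vvm than at 48 h and 3 vvm were found in all 4 shapes. At least 2-fold higher were 19 of the 28 genes low on both sides of 12 h and 7 of the 15 that came up and held. So were 12 of the 22 high at 6 h and low at 24 h, and 5 of the 5 that held at both times. Of the last 5, the gene on contig 1 from 178877 had 1 fragment at 48 h and 3 vvm and 4 at 1.5 vvm (ratio interval 0.360 to 179). Over all shapes, 39 of the 64 members with at least 10 fragments at 12 h were higher. The gene evm.model.unitig_6.794 went from 177 FPKM at 48 h and 3 vvm to 445 FPKM with the lower air supply, 2.65-fold higher (2.43 to 2.88), and still 0.0880 times its 12 h level (0.0841 to 0.0920). On contig 1, the gene from 4273945 was at 2674 FPKM at 1.5 vvm, above each library at 3 vvm and 2.24-fold its 12 h level (2.18 to 2.31). In its neighbour from 4275706 the 1.5 vvm level of 333 FPKM was 1.24-fold that of 12 h (1.21 to 1.27).

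The 3 members furthest above 48 h were far above it. On contig 1 from 2909311 to 2910291, FPKM was 43.1, 59.0, 17.4, 14.9 and 13.8 from 6 to 48 h and 578 at 1.5 vvm, from 53 fragments at 48 h and 2409 at 1.5 vvm. That was 41.3-fold above 48 h (31.5 to 55.3) and 9.67-fold above 12 h (8.35 to 11.3), outside the range of the 5 libraries at 3 vvm. On unitig_5 from 3138099 to 3138995 it was 26.8, 37.2, 17.4, 1.56 and 4.07 FPKM at 3 vvm and 139 at 1.5 vvm, 34.3-fold above 48 h (20.6 to 61.6). On contig 1 from 2825513 to 2829536 it was 1.59, 13.04, 4.50, 0.636 and 0.334 FPKM at 3 vvm and 32.0 at 1.5 vvm. There 7 fragments at 48 h stood against 683 at 1.5 vvm, 88.7-fold (42.8 to 222).

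Few members were lower at 1.5 vvm. The one furthest below 48 h, on unitig_5 from 1211220 to 1212209, was at 119, 155, 59.7, 51.7 and 37.6 FPKM at 3 vvm and 13.3 at 1.5 vvm, below each library at 3 vvm. It was 2.67-fold lower than at 48 h and 3 vvm (1.95 to 3.67). On unitig_0 from 2974962 to 2977861 the level was 41.8 FPKM at 48 h and 20.2 at 1.5 vvm, 2.21-fold lower (1.94 to 2.53), after 104 FPKM at 12 h. The third, on unitig_5 from 3440171 to 3441215, was at 24.6 and 14.5 FPKM, under the 2-fold step. It had also been 1 of the genes that came back after 24 h, at 75.1, 6.59 and 44.0 FPKM at 12, 24 and 36 h.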

How the data were processed

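RNA sequencing libraries of 6 samples of Aspergillus niger H915-1 were used, grouped by the age and aeration in the labels, with 1 library per group. Per the labels' protocols, pellets were frozen, RNA was extracted with an RNeasy column kit, and an Illumina TruSeq RNA kit gave the libraries. The authors deposited FPKM values in 2 tables, per the file headers. Cufflinks 2.1.1 and TopHat2 2.0.9 appear in the submitters' processing notes. With build, annotation and strand setting not given in the sources used here, reads of overlapping genes cannot be told apart. The tables listed 9953 and 10234 genes. FPKM at 24 h was identical at 9930 of 9930 shared loci, and the tables were joined by locus. No scaling across libraries was visible. Left out were 4 value columns that matched no label.

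Columns with count in their header hold a signal that the authors deposited after scaling it to 1 total per table. Division by the smallest step gave whole fragments, within 0.1, for at least 99.9% of values, with totals of 5062817 to 6708034 per library. With 10 fragments counting error alone is 31.6% (relative SD).

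The rule was applied to FPKM of the time course. Log2 differences use a pseudocount of 1 FPKM, which understates the change of low genes, and shares over all genes use those of at least 1 FPKM in 1 of the 2 libraries. Fold ratios with intervals are fragment ratios relative to library totals (exact 95% binomial, Clopper-Pearson; scipy 1.17.1). Starts were raised by 1 so that positions count from 1. Neighbours are the next genes listed in the time course on a contig, so genes at 0 in all 5 libraries are passed over. The trend was fitted with edgeR 4.0.16 in R 4.3.3 with TMM factors over 8987 genes of at least 15 fragments in total, and at a Benjamini-Hochberg adjusted p of 0.05 it called 874 genes rising and 858 falling. With each library left out in turn it called between 259 (without 6 h) and 1624 (without 12 h) genes, 392 without 36 h and 571 without 48 h. It is given over all genes and not for the members, which the same libraries chose. Its spread is the deviation of libraries from a line, not a spread between replicates. Both steps were tested on simulated counts that held counting error only. For the rule, large peaks were added to genes with ample fragments. Members with few fragments or a small lead at 12 h were thus not covered.

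Members, shapes, lists and thresholds were chosen with earlier results of these data known. Described singly are the 2 members with the largest log2 difference between 12 and 6 h and, apart from these, the 2 with the largest between 12 and 48 h. Also described are groups of at least 3 members within 5 listed genes, the 5 most abundant at 12 h, the 3 furthest above and below 48 h at 1.5 vvm and the 2 genes on either side of each limit. Other genes given by position were chosen after their values were seen. Alternatives were other pseudocounts, limits, scalings, filters and definitions of a neighbour, and leaving out single times.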

Additional observations from a re-analysis of the deposited data

How the results depend on the processing

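No paired analysis was possible because each group has 1 library and the labels give no replicate numbers. The count of 70 genes was 48 to 89 under other pseudocounts, limits on FPKM at 12 h and scalings, and 121 with a range of 1.5 or 25 with a range of 3 in log2. With a single time left out it lay between 60 (without 48 h) and 115 (without 6 h), and 55 and 58 of the 70 genes were among them. With libraries rescaled to a common sum 80 genes passed, 69 of them shared, and with TMM factors 82, 70 of them shared. Restricting members to 50 FPKM or more in the higher library left 21 of 39 higher at 12 than at 6 h, 27 of 39 lower at 24 h and 32 of 39 lower at 48 h than at 12 h. At 1.5 vvm 21 of 33 such members were higher and 0 lower than at 48 h and 3 vvm. For the other alternatives, 30 to 45 members were higher at 1.5 vvm, with 30 against the 24 h library of the same table and 42 with the median of genes silent at 3 vvm (1.57 FPKM) taken off. Members lower at 1.5 vvm were 1 with a pseudocount of 5 FPKM and 4 against 24 h. Members with a neighbour in the set were 23 with 1 gene allowed in between and 23 within 5 kb. Alternatives on fragments at 12 h were added after the data were seen.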

Other observations

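By a rule set after the values were seen, 4 stretches held at least 4 members with no gap over 60 kb, 3 of them on contig 1. Such stretches were not counted for the genes highest at other times, so no other number stands beside this one. In the stretch on contig 1 from 2909311 to 2955262, 4 of 11 listed genes were members, with medians of 20.7, 54.0 and 17.6 FPKM at 6, 12 and 24 h. In that from 4269213 to 4328808, 4 of 16 were members, with medians of 3.06, 465 and 424 FPKM at 6, 12 and 48 h. The 4 of 28 genes on unitig_5 from 3363063 to 3441215 had medians of 21.1, 61.7, 7.49 and 25.8 FPKM at 6, 12, 24 and 36 h. From 147247 to 179131 on contig 1 the medians of 4 of 15 genes were 125, 136 and 21.99 FPKM at 6, 12 and 48 h. The last member there, from 178877, had 4 fragments at 12 h, and without it the stretch would not meet the rule. Of the other genes at 1 FPKM or more in these stretches, in the order given, 0 of 4, 1 of 10, 1 of 19 and 1 of 10 were highest at 12 h.

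Of the 23 members on contig 1, 10 were above their 12 h level at 1.5 vvm, against 11 of the 47 elsewhere. The same share was not computed over all genes of contig 1, and adjacent genes are among the 10. These counts are therefore not read as a trait of the contig. The spans of members, introns included, had a median of 1363 bases, and those of all listed genes 1512.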
